A study of Rattus norvegicus with 14 samples.

Results

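The acute phase genes described here were haptoglobin (Hp), hemopexin (Hpx), alpha-2-macroglobulin (A2m), Serpina3n, lipocalin 2 (Lcn2), orosomucoid 1 (Orm1), C-reactive protein (Crp), mucosal pentraxin 1 (Mptx1) and the feedback inhibitor Socs3. They are 9 of the 15154 named genes that were measured, matched by symbol, and each was read from its brightest probe. RNA came from the choroid plexus (CP) of the lateral ventricles of Wistar rats aged 2 months, the secretory tissue that makes cerebrospinal fluid (CSF). The 4 groups were sham-operated females (sham female, 3 arrays), ovariectomized females (OVX, 3 arrays), sham-operated males (sham male, 4 arrays) and orchidectomized males (OOX, 4 arrays), with tissue taken 2 weeks after surgery and no hormone given back. Each array held RNA pooled from 3 animals, so values of single rats were not measured, and whole tissue was used, so fewer cells of a type and less RNA per cell cannot be told apart. All levels are log2 signals relative to the median probe of the same array, and a level of 0 is that median.

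Acute phase proteins are secreted mainly by the liver when infection or tissue damage releases cytokines such as interleukin 6 and interleukin 1. Interleukin 6 and its relatives signal through the shared receptor chain gp130, JAK kinases and the transcription factor STAT3, which acts with C/EBP and NF-kB factors at acute phase promoters, and SOCS proteins close the loop by blocking the receptor complex. The CP epithelium also transcribes several of these genes, and their products can reach the CSF.

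The arrays had 79.7 to 87.2% of their spots well above background by the scanner software's own flag, and arrays of the same group correlated at 0.974 to 0.992 over all named genes. OOX replicate 2 and sham male replicate 1 stood furthest from their groups. OVX replicate 1 shared its scan day with all sham females, and every other array was scanned later. A direct comparison on a shared slide was possible for 1 OVX and 1 sham female array and for 1 OOX and 2 sham male arrays, so slide and surgery were largely confounded. All 12 CP epithelium markers (Ttr, Folr1, Kcne2, Otx2 and others) were well above background on every array, and the summed level of this list was 11.45 to 11.69 in sham females, 11.02 to 11.69 in OVX, 11.44 to 11.65 in sham males and 11.12 to 11.49 in OOX. Because Ttr was flagged as saturated on all 14 arrays, these sums are no measure of epithelial content.

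OVX and sham females differed in 3 of the 9 genes in the CP at an adjusted p under 0.05. Haptoglobin was 2.3-fold higher in OVX, alpha-2-macroglobulin was lower by 0.98 on the log2 scale, and Mptx1 was lower with a probe near the floor of the array. None of the 3 passed with slide or scan day in the model, and neither can be fully told apart from surgery. Among all 15154 genes, 6.22% were called in females at an adjusted p under 0.05, 1.81% as higher and 4.4% as lower; the 9 genes are not an independent sample of them. Between OOX and sham males none of the 9 was called, where 0.0858% of all genes were called. In males 0 of the 9 also had an unadjusted p under 0.05, against 6.88% of all genes, and the methods' t-test called 0 of the 9 in either sex after adjustment, among 3 calls over all genes in females and 0 in males. The groups of a sex did not overlap for 5 of the 9 genes in females (Hp higher, A2m, Lcn2, Mptx1 and Crp lower) and for 0 of the 9 in males, while the same held for 27.7% and 4.01% of all genes.

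**Figure D1:**
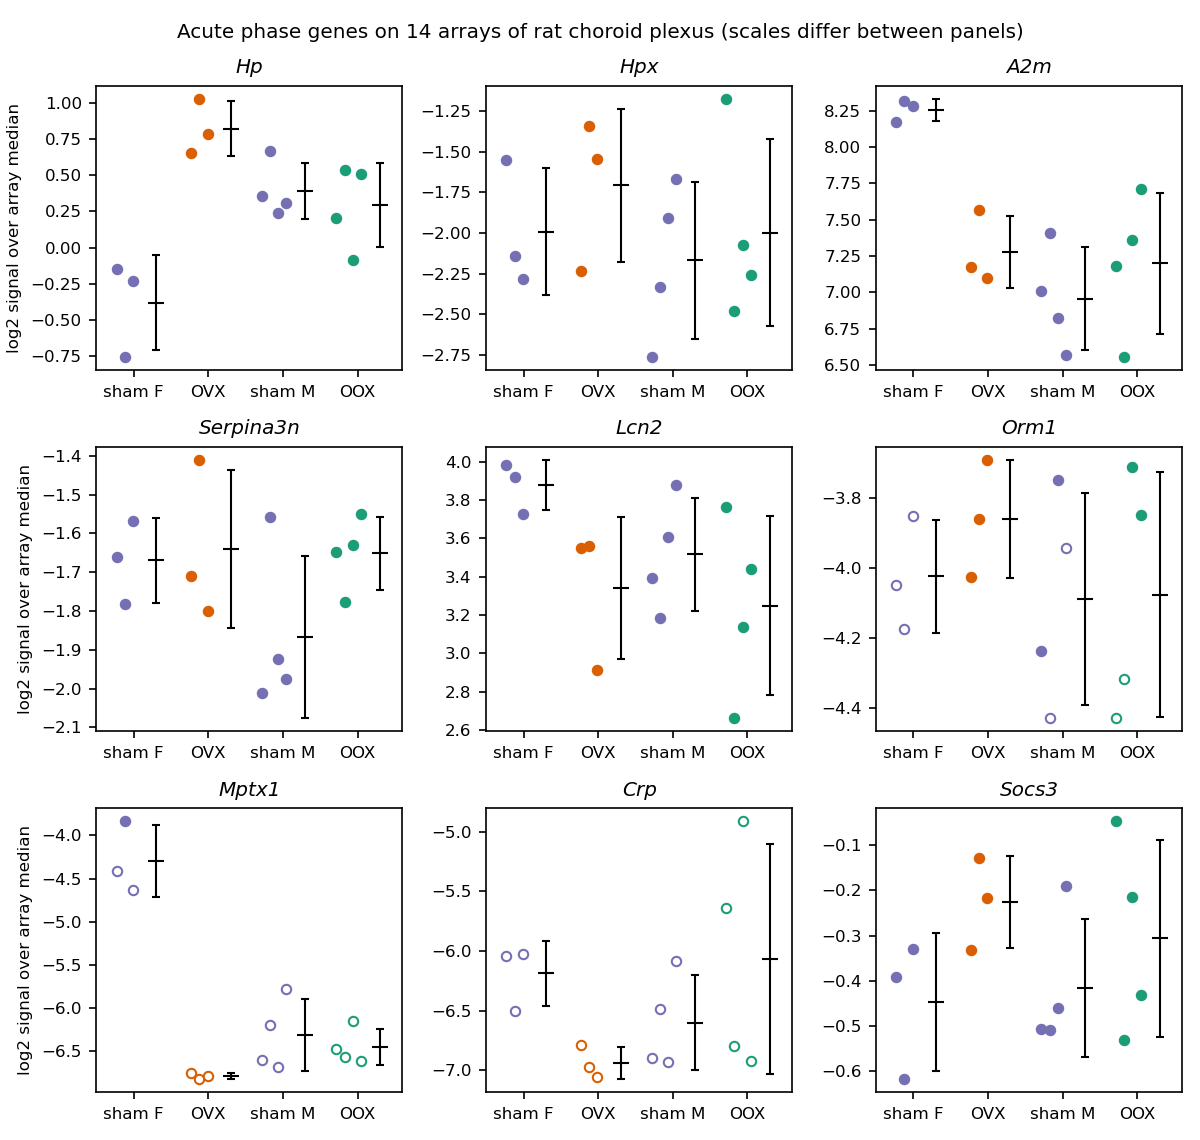
Level of each of the 9 genes on the 14 arrays (y axis, log2 signal over the array median, with a scale of its own in each panel) in sham female, OVX, sham male and OOX. Each circle is 1 array, filled where the probe was well above background and open where it was not; bars show the group mean and SD. The 3 sham female circles lie below the 3 OVX circles for Hp and above them for A2m, Lcn2, Mptx1 and Crp.

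Haptoglobin, which binds free hemoglobin so that it can be cleared through the receptor Cd163, was well above background on all 14 arrays. Its level was -0.15, -0.76 and -0.23 in sham females and 0.66, 1.03 and 0.78 in OVX. It was 0.35, 0.67, 0.24 and 0.31 in sham males and 0.21, 0.54, -0.08 and 0.51 in OOX. The lowest OVX array was thus above the highest sham female array, and the male groups overlapped in part, all 8 arrays above the sham females. The difference in females was 1.20 ± 0.20 on the log2 scale (SE; 3 against 3 arrays; 95% interval 0.71 to 1.70; limma adjusted p = 0.0401). Within the slide that held 1 array of each female group the Hp difference was 0.89. The call held without sham female replicate 2 (adjusted p = 0.0305) and was lost without any 1 of the other 5 female arrays, with adjusted p from 0.0791 to 0.118 and differences from 1.10 to 1.32. The Hp call was also lost with quantile normalization (adjusted p = 0.0699). In males the difference was -0.10 ± 0.18 (95% interval -0.51 to 0.31, adjusted p = 0.959). The male response minus the female response was -1.30 ± 0.28 and did not pass across all genes (adjusted p = 0.101).

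Hemopexin, which carries free heme as haptoglobin carries hemoglobin, had no called difference in either sex. Whether its response differed from that of haptoglobin was not tested. Its level was -1.55, -2.14 and -2.28 in sham females and -2.24, -1.34 and -1.54 in OVX. In males it ran from -2.76 to -1.67 (median -2.12) in sham and from -2.48 to -1.18 (median -2.17) in OOX. The groups overlapped in both sexes. The differences were 0.28 ± 0.30 in females (95% interval -0.44 to 1.005, adjusted p = 0.623) and 0.17 ± 0.33 in males (95% interval -0.59 to 0.93, adjusted p = 0.959).

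Alpha-2-macroglobulin, a broad protease inhibitor that is the classical major acute phase protein of the rat, gave one of the brightest signals of the array. Its level was 8.17, 8.31 and 8.28 in sham females and 7.17, 7.56 and 7.10 in OVX. In sham males it was 7.01, 7.41, 6.83 and 6.57, and in OOX it was 7.18, 6.55, 7.36 and 7.71. The sham females stood above all 11 other arrays, and the male groups overlapped. The female difference was -0.98 ± 0.16 (95% interval -1.36 to -0.59, adjusted p = 0.0401), a 1.97-fold lower level in OVX. The second A2m probe differed by -1.03, and within the shared slide the difference was -1.10. No array had the spot flagged as saturated, although the median pixel of the spot reached 66.9 to 97.4% of the scanner's ceiling in sham females, 40.8 to 49.2% in OVX, 20.0 to 40.6% in sham males and 30.8 to 60.1% in OOX. The A2m call was lost without any 1 of the 6 female arrays, with adjusted p from 0.0529 to 0.125 and differences from -1.12 to -0.89. Quantile normalization (adjusted p = 0.105) and all groups in 1 fit (0.0704) also lost the A2m call. In males the difference was 0.25 ± 0.27 (95% interval -0.38 to 0.87, adjusted p = 0.944), and the difference between the male and female responses was 1.22 ± 0.36 (adjusted p = 0.25).

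Serpina3n, a serine protease inhibitor of the antichymotrypsin family, varied little between arrays. Its level was -1.66, -1.78 and -1.57 in sham females, -1.71, -1.41 and -1.80 in OVX, -2.01, -1.56, -1.92 and -1.98 in sham males and -1.65, -1.78, -1.63 and -1.55 in OOX. Groups overlapped in both sexes. The differences were 0.03 ± 0.15 in females (95% interval -0.33 to 0.39, adjusted p = 0.928) and 0.22 ± 0.14 in males (95% interval -0.11 to 0.54, adjusted p = 0.827).

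Lipocalin 2, which binds bacterial siderophores and so withholds iron, was well above background on all arrays. Its level was 3.98, 3.92 and 3.73 in sham females, 3.55, 3.56 and 2.91 in OVX, 3.39, 3.19, 3.61 and 3.88 in sham males and 3.76, 2.66, 3.14 and 3.44 in OOX. The 3 OVX arrays lay below the 3 sham arrays, but OVX replicate 3 stood apart from the other two by more than the gap between the groups. The female difference of -0.54 ± 0.21 (95% interval -1.04 to -0.03) had an unadjusted p of 0.0406 and did not pass across all genes (adjusted p = 0.199), and within the shared slide it was -0.18. In males it was -0.27 ± 0.26 (adjusted p = 0.923). Orosomucoid 1, a plasma carrier of small molecules that belongs to the same lipocalin fold family, was dimmer, from -4.43 to -3.69 over all arrays. Its probe was well above background on 0 of 3 sham female, 3 of 3 OVX, 2 of 4 sham male and 2 of 4 OOX arrays, and its differences were 0.17 ± 0.15 in females (adjusted p = 0.571) and 0.01 ± 0.22 in males (adjusted p = 0.991).

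The pentraxins Mptx1 and Crp are ring-forming pattern recognition proteins; Crp is the plasma protein, and Mptx1 is known from the intestinal mucosa. Their promoters are shown because the 2 genes lie on the same chromosome, belong to one family and had probes near or below the background limit; that of Serpina3n is shown because it alone of those searched held the STAT letters. The lines give the 250 bases before each start site, 5′ to 3′ on the gene's strand, from RefSeq on build GRCr8: Mptx1 at chr13:88263870-88264119 (minus strand), Crp at chr13:87693812-87694061 (plus strand) and Serpina3n at chr6:129088142-129088391 (plus strand). Capitals mark matches to the STAT letters TTCNNNGAA or the C/EBP letters TTNNGNAA on either strand.
Mptx1: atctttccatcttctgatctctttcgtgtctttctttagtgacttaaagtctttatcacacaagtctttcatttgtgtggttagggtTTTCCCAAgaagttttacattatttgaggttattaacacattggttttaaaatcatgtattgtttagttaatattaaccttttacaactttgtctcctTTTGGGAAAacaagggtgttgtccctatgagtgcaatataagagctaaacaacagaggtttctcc
Crp: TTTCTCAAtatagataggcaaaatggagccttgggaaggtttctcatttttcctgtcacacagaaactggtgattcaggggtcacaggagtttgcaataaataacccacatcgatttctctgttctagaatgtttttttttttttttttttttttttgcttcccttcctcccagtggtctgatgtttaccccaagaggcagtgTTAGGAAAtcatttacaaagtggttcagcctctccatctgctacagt
Serpina3n: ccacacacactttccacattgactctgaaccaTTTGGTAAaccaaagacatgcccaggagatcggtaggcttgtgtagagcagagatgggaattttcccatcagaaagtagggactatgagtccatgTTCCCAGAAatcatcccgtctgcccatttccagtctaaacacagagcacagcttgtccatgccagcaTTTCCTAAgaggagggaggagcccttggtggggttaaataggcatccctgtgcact

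RefSeq promoters of 300 bases, 250 before and 50 after the start, were at hand for 7 of the 9 genes, without Hp and A2m. The C/EBP letters matched 3 times in Mptx1, of which 2 matches overlap, 2 times each in Crp, Orm1, Serpina3n and Hpx, once in Lcn2 and not in Socs3, and 40.8% of all 27457 promoters of that length hold them. The STAT letters matched only in Serpina3n, once, and 8.68% of all promoters hold them. The palindromic estrogen response element matched in none of the 7 and in 0.0255% of all promoters, and the glucocorticoid and androgen receptor letters AGAACA matched once, in Crp, against 20.1% of all promoters. A match of letters is a description and does not show a binding site.

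Mptx1 was near the floor of the array. Its level was -4.42, -3.83 and -4.64 in sham females, and only replicate 2 was well above background. It was -6.75, -6.82 and -6.78 in OVX, between -6.68 and -5.78 in sham males (median -6.40) and between -6.61 and -6.15 in OOX (median -6.52), with none of these 11 arrays well above background. The sham females stood above all 11 other arrays. The female difference passed (adjusted p = 0.0253). With OVX at its detection limit, the measured mean of the sham females was 1.34-fold higher. This is not a firm minimum, because only replicate 2 of the sham females was well above background. The measured means differed by -2.49 ± 0.22 on the log2 scale and by -2.12 within the shared slide. With normexp background correction, which adds an offset of 50 to every signal, the difference was -0.33 and no longer passed (adjusted p = 0.511). The call held without sham female replicate 2 (adjusted p = 0.0282) or 3 (0.0476) and was lost without sham female replicate 1 or any 1 of the 3 OVX arrays, with adjusted p from 0.0791 to 0.095. In males the measured difference was -0.14 ± 0.22 (adjusted p = 0.959).

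Crp was below the background limit on all 14 arrays, so its numbers have no interpretable fold. Its measured level was -6.04, -6.50 and -6.02 in sham females and -6.79, -6.97 and -7.06 in OVX, and ran from -6.93 to -6.08 in sham males and from -6.92 to -4.91 in OOX. The female difference of -0.75 ± 0.18 did not pass (adjusted p = 0.0555), and the male difference of 0.53 ± 0.45 did not either (adjusted p = 0.9). Dim probes as a class were lower in OVX: the 1771 genes whose probes were dim throughout the female arrays had a median difference of -0.59, with 31.7% of them called, while the 11589 genes above background on every female array had a median of -0.07, with 2.06% called. Its part in the values of Mptx1 and Crp was not tested.

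Socs3, the STAT3-induced inhibitor of gp130 signaling, was well above background on all arrays. Its level was -0.39, -0.62 and -0.33 in sham females, -0.33, -0.13 and -0.22 in OVX, -0.51, -0.51, -0.46 and -0.19 in sham males and -0.05, -0.53, -0.21 and -0.43 in OOX. The groups overlapped in both sexes. The differences were 0.22 ± 0.14 in females (95% interval -0.11 to 0.55, adjusted p = 0.399) and 0.11 ± 0.15 in males (95% interval -0.24 to 0.46, adjusted p = 0.959). Within the shared female slide the difference was -0.0027.

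**Figure D2:**
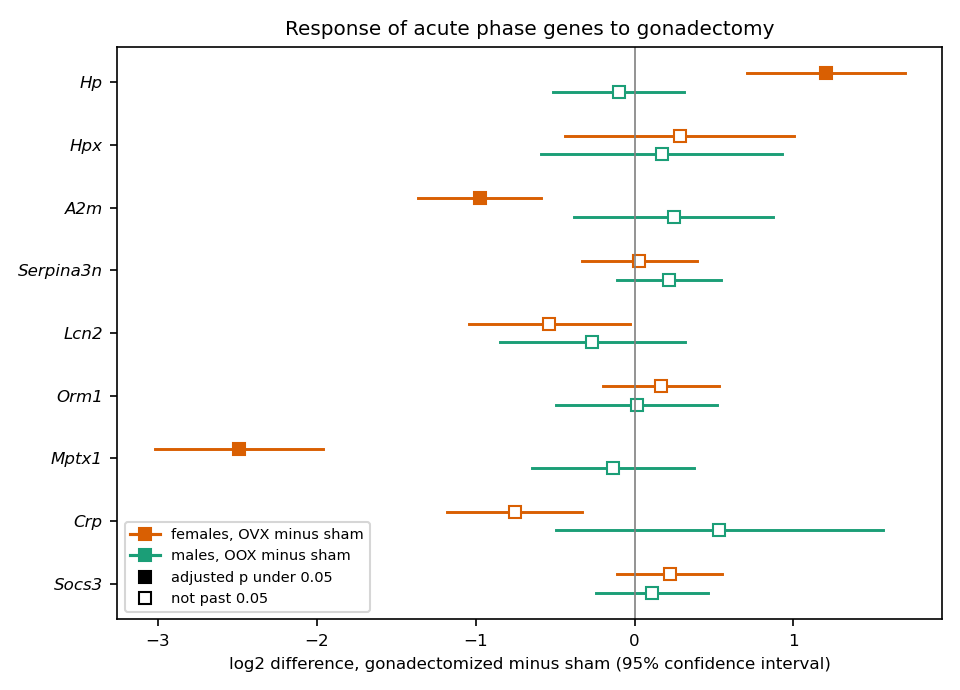
Difference between gonadectomized and sham arrays for each gene (x axis, log2; 3 against 3 arrays in females, 4 against 4 in males). Squares are the fitted differences, filled where the adjusted p is under 0.05, and lines are 95% confidence intervals. Only Hp, A2m and Mptx1 in females are filled; the fitted values of Mptx1 and Crp rest on probes near or below the background limit.

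The response of the sexes was compared for each gene by subtracting the female difference from the male one, a test that called 0.251% of all genes, 0.185% as higher and 0.066% as lower. Mptx1 passed it (2.35 ± 0.33, adjusted p = 0.0112), with the limit that 13 of its 14 arrays were not well above background. The other 8 genes did not pass. Normexp background correction brought the Mptx1 difference to 0.09 (adjusted p = 0.862), and it also did not pass with slide (adjusted p = 0.739) or scan day (adjusted p = 0.0877) in the model.

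For each of the 3 called genes the sham female arrays lay outside the range of all 11 other arrays, males included. OVX replicate 1, scanned on the same day as the sham females and on the same slide as sham female replicate 3, had levels of 0.66 for Hp, 7.17 for A2m and -6.75 for Mptx1. Slide and scan day cannot be fully told apart from surgery. With scan day in the model the differences were 1.04 for Hp (adjusted p = 0.29), -1.08 for A2m (adjusted p = 0.252) and -2.46 for Mptx1 (adjusted p = 0.12). With slide in the model, which leaves 1 degree of freedom, they were 0.89, -1.10 and -2.12, and none passed. The differences of these 3 genes kept their sign under every alternative that was run, as shown in the plot of the female difference by setting.

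**Figure D3:**
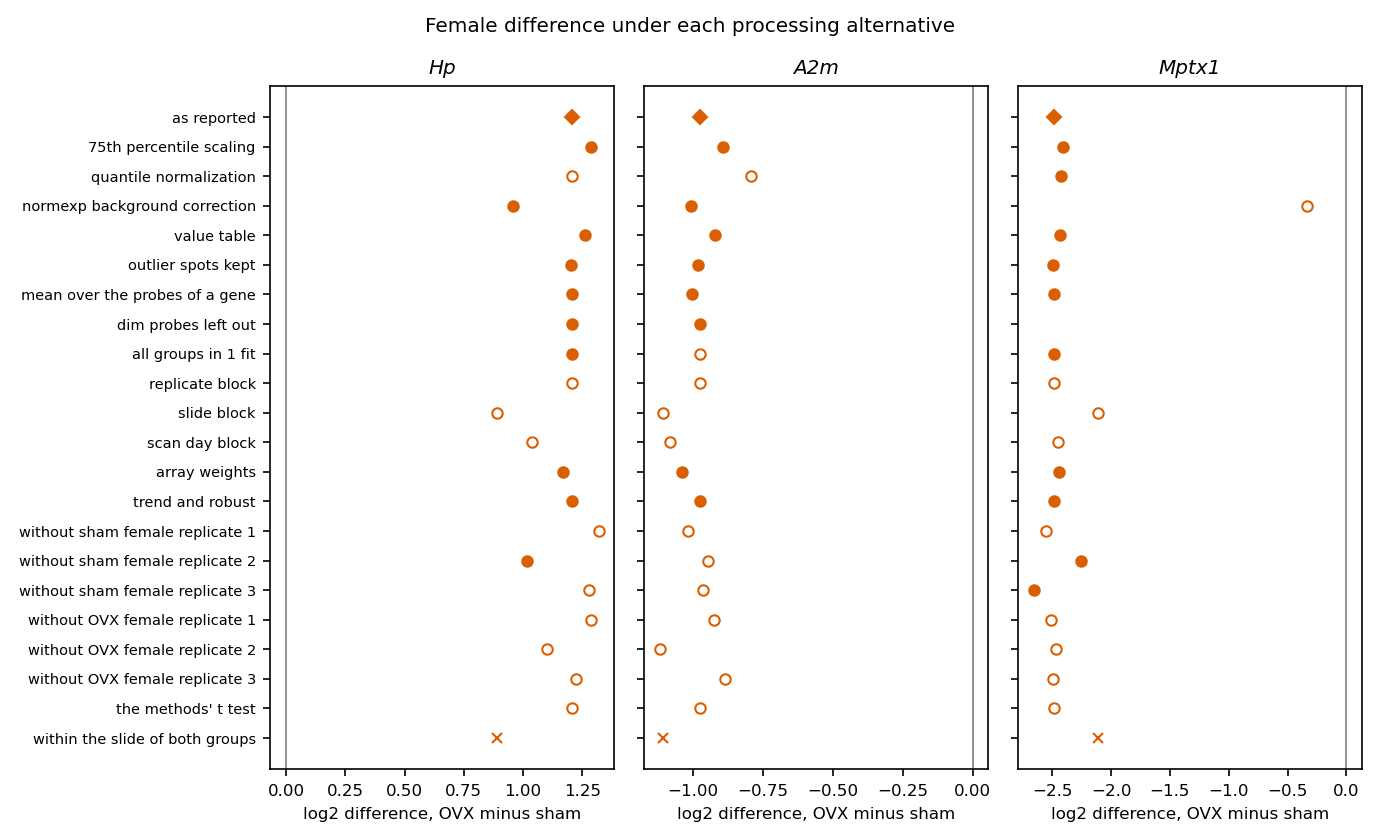
Difference between OVX and sham female (x axis, log2) for Hp, A2m and Mptx1 under each processing alternative (y axis). Filled symbols have an adjusted p under 0.05, open circles do not, and crosses are the untested difference within the one shared slide; Mptx1 has no value with dim probes left out. The values of Hp lie between 0.89 and 1.32 and those of A2m between -1.12 and -0.79, while Mptx1 falls to -0.33 with normexp background correction.

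The rest of the pathway was read from lists of genes by role. Of 29 other positive acute phase proteins, none was called in either sex, with a median female difference of 0.01 (all genes -0.07) and a median male difference of 0.12 (all genes 0.02). At an unadjusted p under 0.05 the smallest female values belonged to 3 genes. Saa4, a constitutive serum amyloid A, had -1.31, -1.46 and -1.32 in sham females and -0.92, -0.48 and -0.70 in OVX, a difference of 0.67 without overlap (adjusted p = 0.0527). The C1 inhibitor Serping1 had a difference of -0.69 (adjusted p = 0.0937), and hepcidin (Hamp), the hormone that limits iron export, had 0.32 (adjusted p = 0.209).

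The negative acute phase proteins, which the liver makes less of during inflammation, had 1 gene higher and 2 lower in OVX among 15 measured. Their median difference was -0.03. Over all genes, 1.81% were called as higher and 4.4% as lower in OVX. Ahsg (fetuin A), a plasma glycoprotein that keeps calcium phosphate soluble, was well above background on all arrays. Its level was -3.56, -3.27 and -3.31 in sham females and -2.11, -2.09 and -2.45 in OVX, so that it rose by 1.16 (adjusted p = 0.0401). The Ahsg call was lost with quantile normalization (adjusted p = 0.0836), all groups in 1 fit (0.0503), a trend with robust variance (0.057), slide (0.534) or scan day (0.198) in the model and without any 1 female array other than sham female replicate 2 (0.0791 to 0.117). Normexp background correction brought the difference to 0.29 (adjusted p = 0.492). The male groups overlapped, from -2.60 to -2.16 in sham and from -3.37 to -2.18 in OOX, with a difference of -0.20 (adjusted p = 0.959). Fetub, a related fetuin, had a measured difference of -2.13 and the macroglobulin Mug1 one of -0.78 (adjusted p = 0.0401 each; -0.27 and -0.04 with normexp background correction, which did not pass), but neither probe was well above background on any of the 14 arrays, so they have no fold. Of the 1771 genes dim throughout the female arrays, 31.7% were called. In the list of negative acute phase proteins the growth factor Igf1 had -0.77 (adjusted p = 0.0826). The dim probes of Serpina6 and Gc had 0.60 (adjusted p = 0.104) and -0.85 (adjusted p = 0.174).

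Among 13 acute phase cytokines, 1 was lower in OVX and none was called in males, with median differences of 0.19 and 0.01. Over all genes, 4.4% were called as lower in OVX and 0.0858% were called in males. Interleukin 22 (Il22), which acts on epithelia through STAT3, was -3.87, -3.19 and -3.65 in sham females, above background on 2 of 3 arrays. It was -6.30, -6.92 and -5.24 in OVX, not well above background on any of the 3 arrays. The female difference passed (adjusted p = 0.0401). With OVX at its detection limit, the measured mean of the sham females was 2.21-fold higher. This is not a firm minimum, because not every sham female array was well above background. The female call was lost without any 1 of the 6 arrays (adjusted p = 0.0581 to 0.123), with a trend and robust variance (0.0511) and with slide (0.525) or scan day (0.278) in the model, and normexp background correction brought the measured difference from -2.59 to -0.40 (adjusted p = 0.301). In sham males it was -6.69, -6.36, -5.05 and -5.95, none above background, and in OOX -4.50, -2.91, -4.03 and -4.93, with 1 of 4 arrays above background. The male groups did not overlap either, in the opposite direction, but the male difference did not pass (1.92, adjusted p = 0.435). The difference between the responses of the sexes did (4.51 ± 0.73, adjusted p = 0.028), with normexp background correction bringing it to 0.41 (adjusted p = 0.475). It also did not pass with slide (adjusted p = 0.555) or scan day (0.141) in the model. Nor did it pass without any single sham female array, OVX replicate 1 or 2, OOX replicate 3, or sham male replicate 2 or 4 (0.0563 to 0.0935). Another 3 cytokines had values without a call in females: Il1a 0.69 (adjusted p = 0.0553), Il10 0.85 (adjusted p = 0.17) and Lif 0.25 (adjusted p = 0.276).

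Receptors and signal transducers held no call in either sex. The medians were -0.07 in females and 0.09 in males over 14 cytokine receptors, -0.05 and -0.04 over 18 JAK-STAT, C/EBP and NF-kB transducers, and 0.06 and -0.12 over 8 SOCS family members and other inhibitors. The leukemia inhibitory factor receptor Lifr had the smallest p of the receptors (-0.94 in females, adjusted p = 0.0625), with -0.26 within the shared slide. The decoy receptor Il1r2 had -0.45 (adjusted p = 0.283) and Il22ra1, a chain of the Il22 receptor, had 0.85 (adjusted p = 0.131). Of the transducers, Hnf4a had 0.96 (adjusted p = 0.075), Stat5a -0.44 (adjusted p = 0.108) and Myd88 -0.41 (adjusted p = 0.167). Of the inhibitors, Socs1 had 0.57 (adjusted p = 0.214), Socs5 -0.26 (adjusted p = 0.438) and Dusp1 0.24 (adjusted p = 0.51).

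Other STAT3 target genes were not called either, 0 of 15 in each sex, with medians of -0.12 and -0.01. Ccnd1, which encodes cyclin D1, had a female difference of 0.56 (adjusted p = 0.077) and a male difference of -0.40 (adjusted p = 0.606), without overlap of the groups in both sexes. The kinase genes Pim1 and Pim3 had 0.60 (adjusted p = 0.152) and -0.70 (adjusted p = 0.166) in females. Receptors and partners of the acute phase proteins gave 0 of 15, with medians of -0.15 and -0.03, and values of 0.50 for Mmp9 (adjusted p = 0.321), -0.64 for Lcn1 (adjusted p = 0.106) and -0.29 for the heme oxygenase gene Hmox2 (adjusted p = 0.269). The Mmp9 and Lcn1 probes were dim throughout the female arrays. Of the 5 estrogen and androgen receptors none was called, with medians of -0.11 and 0.25; Esr1 was dim in all groups (female difference 0.52, adjusted p = 0.144), and Esr2 and Gper1 had 0.30 (adjusted p = 0.61) and -0.16 (adjusted p = 0.664) in females.

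**Figure D4:**
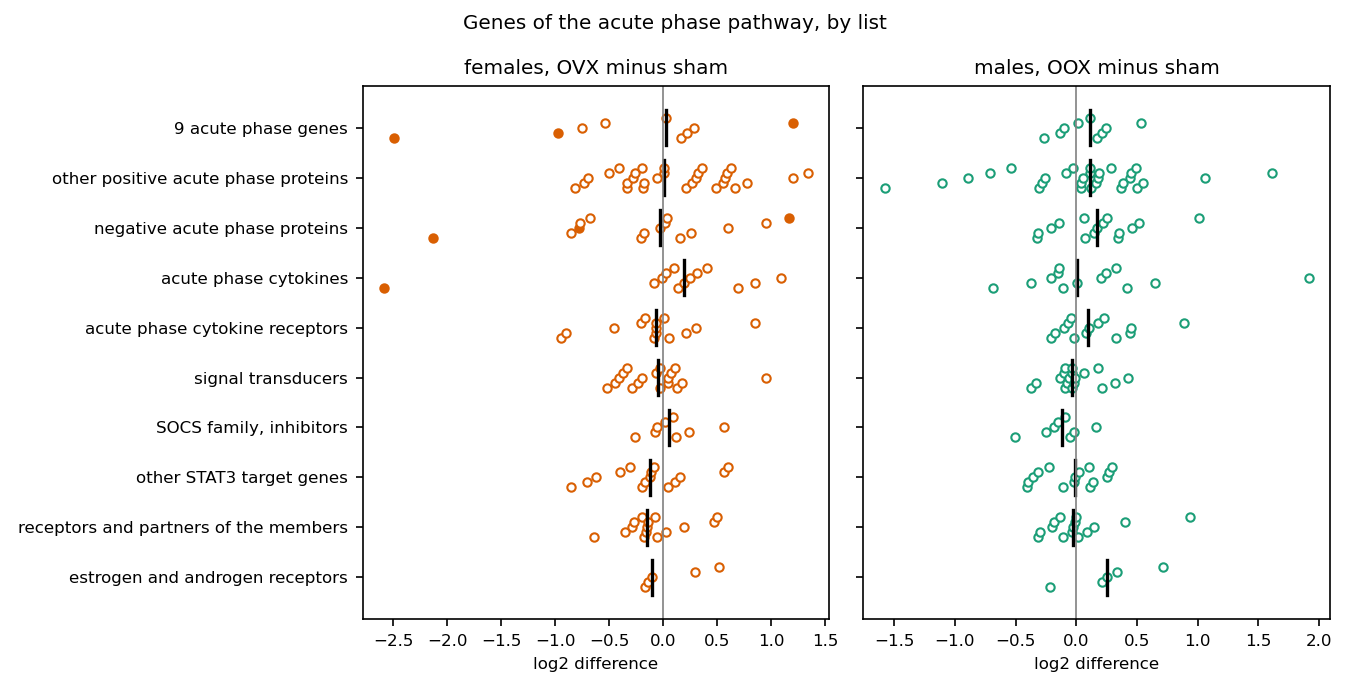
Differences of single genes (circles; x axis, log2) in females and in males for the 9 acute phase genes and the 9 lists of pathway genes (y axis). Filled circles have an adjusted p under 0.05 and black bars are medians. Filled circles appear in females only, 3 among the 9 genes, 3 among the negative acute phase proteins and 1, Il22, among the cytokines; the list medians lie between -0.15 and 0.19 in females.

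Markers of other cell types were read on the same arrays. The neutrophil list had a median female difference of 0.51, with 1 of 11 called, the dim collagenase gene Mmp8 (-0.81). Its summed level was 0.53 to 1.58 in sham females and 1.25 to 2.07 in OVX, with Ltf at background on all arrays and Mpo not measured. The hepatocyte list had 2 of 10 called, Ahsg and the dim gene Tat (-0.82). The hepatocyte sums were 1.08 to 1.26 in sham females and 1.14 to 1.38 in OVX, with Cps1 and Tat at background on all 14 arrays. Over all genes, 6.22% were called in females, and 31.7% of those dim throughout the female arrays. None was called among the red blood cell markers (median 0.38, sums 9.91 to 10.13 and 9.48 to 10.20), neuron markers (-0.90, 3.14 to 5.51 and 2.64 to 4.24) or astrocyte markers (-0.44, 5.71 to 6.68 and 5.61 to 6.33). The same held for oligodendrocytes (-0.08, 8.50 to 8.59 and 7.95 to 8.55), fibroblasts (-0.46, 7.80 to 8.07 and 7.16 to 7.79), endothelium and mural cells (0.05, 7.53 to 7.65 and 7.13 to 7.51) and macrophages and microglia (-0.04, 8.15 to 8.46 and 8.15 to 8.26). The female groups did not overlap for the fibroblast and endothelial sums, both lower in OVX, but the nearest fibroblast sums were 7.796 and 7.795 and the endothelial median was above 0; 27.7% of all genes had female groups that did not overlap. Over the 14 arrays the red blood cell sum was highest in OVX replicate 2 (10.20), the array with the lowest median signal (171). This sum was lowest in OVX replicate 3 (9.48), the array with the highest median signal (289). The part of the array median in the red blood cell sums was not tested, so these sums are no measure of blood content. The part of these cell types in the differences of Hp, A2m and Ahsg was not tested.

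Genes that followed the acute phase genes from array to array were sought by Pearson correlation over the 14 arrays among 11121 genes well above background on all of them, as a description. Lcn2 was most like Stat3 (r = 0.90, Spearman's rho = 0.92). The correlation of Lcn2 with Stat3 was 0.86 after each group's mean was removed and 0.85 without the 2 arrays with the most extreme Lcn2. All levels of an array share its median signal as divisor, which ran from 171 (OVX replicate 2) to 289 (OVX replicate 3). The part of this divisor in the correlations was not tested. Stat3 itself ran from 3.78 to 4.70 and had differences of -0.37 in females (adjusted p = 0.33) and -0.09 in males (adjusted p = 0.959). Spsb4 (r = 0.88) and the orphan receptor gene Esrrg (r = 0.88) came next.

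**Figure D5:**
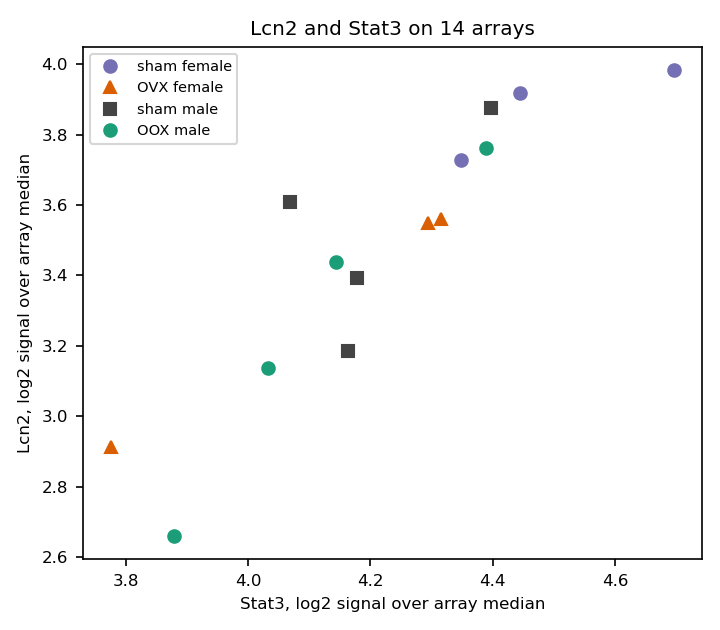
Level of Lcn2 (y axis) against Stat3 (x axis), both as log2 signal over the array median, with 1 symbol for each of the 14 arrays and a shape or color for each group. The arrays run from low to high in both genes within groups as well as between them (r = 0.90 over 14 arrays, chosen as the highest among 11121 genes).

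Socs3 and Hpx, whose groups overlapped, shared Nptx2, a neuronal pentraxin, as the most similar gene (r = 0.94 and 0.85), and correlated with each other at 0.76 both before and after group means were removed. Vegp2 (r = 0.91) and Krt14 (r = 0.89) followed for Socs3, and Tmprss7 (r = 0.85) and Pgap6 (r = 0.82) for Hpx. Hp was most like Dqx1 (r = 0.93, and 0.80 with group means removed), Fam227a (0.92 and 0.66) and Akap8l (0.91 and 0.67), all 3 of which were higher in OVX (0.80, 0.93 and 0.90 on the log2 scale). A2m correlated with Cand2 at 0.92 and with Frmpd4 at 0.89, and Serpina3n was most like C8h15orf39 (0.83), Adprs (0.81) and Hnrnpul1 (0.81). Among the acute phase genes themselves Hp and A2m correlated at -0.55 over the arrays and at 0.13 with group means removed, and A2m and Serpina3n at 0.55 and 0.73.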

How the data were processed

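Gene expression was measured on 14 one-color Agilent rat arrays (Cy3, 200 ng of RNA from a pool of 3 animals each). The authors extracted spot intensity with Agilent Feature Extraction, which subtracts background, and centered array medians with BRB-ArrayTools; the deposited value table on the log2 scale matched the scanner values after 1 constant per array was removed (99.4 to 99.6% of probes within 0.01) and was used as an alternative. From the deposited processed intensity, control and outlier spots were left out, spots of a probe averaged, log2 taken and the array median of 30367 rat probes subtracted. Probes were named through RefSeq accessions (18004 to 15154 genes; 12363 stayed unnamed), and the brightest probe stood for a gene.

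Groups were compared within each sex with limma 3.58.1 in R 4.3.3, tested on simulated data, and Benjamini-Hochberg adjustment covered named genes together with unnamed probes. The difference between sexes was an interaction over 14 arrays. A gene dim in 1 group has only a bound for its fold. That bound is rough where arrays of the other group were also not well above background. The labels call pools biological replicates but mention 3 per group, while 4 arrays per male group were analysed; p-values measure the spread between arrays, whose number limits the precision. Normexp used median spot signals, in place of the mean signals planned for it. Alternatives changed scaling, background, filter, probes, blocks, test and arrays. The genes and lists were chosen with earlier results of these data known; named list genes are those called plus up to 3 with the smallest unadjusted p in females. A gene correlated with A2m is not reported here.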

Additional observations from a re-analysis of the deposited data

Results flagged for a closer look

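Among the named genes, 3 passed the test of a different response in the sexes. For Mptx1 the male difference minus the female difference was 2.35 (adjusted p = 0.0112), for Il22 4.51 (adjusted p = 0.028) and for Fetub 2.65 (adjusted p = 0.0467); these probes were not well above background on most arrays, and none of the 14 arrays had Fetub above it. The Fetub difference did not pass with 75th percentile scaling (adjusted p = 0.0588), the deposited values (0.0511), normexp (0.16, adjusted p = 0.77) or slide (0.428) or scan day (0.165) in the model, nor without most single arrays. For Il22 every OVX array was below every sham female array and every OOX array above every sham male array. Only the female difference passed, and 4.01% of all genes had male groups that did not overlap. The Il22 difference between the sexes did not pass with normexp (0.41, adjusted p = 0.475), slide (0.555) or scan day (0.141) in the model, nor without most single arrays. For Ccnd1 every OVX array was above every sham female array and every OOX array below every sham male array, but neither difference passed (adjusted p = 0.077 and 0.606), nor did the male difference minus the female difference of -0.96 (adjusted p = 0.0758).

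Single arrays stood apart from the other 3 of a male group for Socs3 (sham male replicate 4, -0.19), Lifr (OOX replicate 2, -0.78) and Myd88 (sham male replicate 1, 4.38). The search covered 80 groups of 4 arrays, over 40 genes in males, and chance singles out about 1 group in 20.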

How the results depend on the processing

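In females 942 genes and 3 of the 9 acute phase genes were called. The replicate block, whose numbers did not pair the arrays (correlations of deviations -0.39 to 0.21), and the slide block called 0 genes and 0 of the 9, scan day 14 and 0, and the methods' t-test 3 and 0. Quantile normalization called 64 genes and 1 of the 9, normexp 110, dim probes left out 188, all groups in 1 fit 229, and a trend with robust variance 95. Leaving out 1 array gave 2 to 950 genes and 0 to 3 of the 9. At an unadjusted p under 0.05 with a fold above 1.5 there were 2107 genes, or 1680 with the methods' t-test, and 4 of the 9 in both. In males, where 13 genes were called, normexp, all groups in 1 fit, the methods' t-test and leaving out both arrays that stood apart (chosen after seeing the data) called 0, the replicate block 8 and array weights 35; leaving out 1 array gave 6 to 12 genes, and the unadjusted rule 520, or 353 with the methods' t-test. Of the differences between the sexes, 38 genes and 1 of the 9 were called. The 75th percentile gave 83 genes, quantile normalization 64, the deposited values 69, dim probes left out 59, array weights 189, a trend 60, both arrays left out 65, the replicate block 9 and the slide block 10; leaving out 1 array gave 19 to 49 genes. Of the 9, array weights called 3 there, and dim probes left out (7 measured) and the replicate, slide and scan day blocks 0. Over single differences of the 9 genes, 547 of 641 alternatives kept direction and side of the threshold, 35 lost and 5 gained the call, 54 moved and 0 turned a called sign. The causes were not tested. Probes near background, such as Mptx1, Crp and Il22, give rough bounds or no fold.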
